A study of Mus musculus with 9 samples.

Results

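Quadriceps myeloid cells from *mdx* mice given either of 2 drugs that act on steroid receptors were compared, both drugs together, with the same cells from mice given vehicle. The treated side holds 6 of the 9 libraries of the series, 3 with prednisolone and 3 with spironolactone, and the other 3 libraries are vehicle. Each drug group had equal weight, so that a change is the mean of both drugs over vehicle. All mice carried the *mdx* strain label (no dystrophin, the protein missing in Duchenne muscular dystrophy), were 4.5 weeks old at collection, and drank the drug or its sucralose vehicle for 7 days. No healthy or untreated mice are among the 9 libraries. CD45+CD11b+ cells (leukocytes of the myeloid line) were sorted from pooled quadriceps of 3 mice per library, so that a replicate is a pool. Muscle was minced and digested with warm collagenase, and the cells were stained and sorted before RNA was isolated. The sort did not separate live from dead cells, and the pools held mice of both sexes.

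Prednisolone activates the glucocorticoid receptor, and spironolactone blocks the mineralocorticoid receptor. Both are ligand-bound transcription factors of the same family, and glucocorticoids can occupy both. In macrophages, activated glucocorticoid receptor is known for restraining genes driven by AP-1 and NF-kappaB, the factors that switch on chemokines and cytokines after injury, and for inducing brakes such as *Dusp1*, *Tsc22d3*, *Zfp36*, and *Per1*. The doses of the drugs differed, so that the sizes of their changes are given side by side and say nothing of potency.

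The libraries held 31469815 to 32943512 counts on genes, and 16618 of 50559 genes passed the filter on low counts. Levels are counts scaled to a common library total (CPM) after TMM normalization, and changes are log2 fold changes ± SE from edgeR. *Ptprc* (CD45) lay between 545 and 660 CPM and *Itgam* (CD11b) between 978 and 1486 CPM in the 9 libraries. The sex mix of the pools varied. *Xist*, a transcript of female cells, was 318, 217, and 508 CPM in vehicle, 712, 380.2, and 65.3 CPM in spironolactone, and 489, 301, and 303 CPM in prednisolone libraries. On the first principal component (32.3% of the variance of 500 genes) prednisolone libraries lay from -19.1 to -14.7 and spironolactone libraries from 11.2 to 23.5. Vehicle libraries, at -7.77, -3.29, and 16.2, lay between and within them, so that the largest axis separated the drugs from each other. Vehicle library 1 stood apart on the second component (14.7% of the variance), at 27 against -8.25 to 1.94 in the other 8 libraries, and spironolactone library 1 on the third (13.5%), at -24 against -2.61 to 15.5.

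With both drugs together, 20 genes fell and 3 rose against vehicle (edgeR quasi-likelihood F test, two-sided, Benjamini-Hochberg adjusted *P* under 0.05). These are 0.12% and 0.0181% of all genes tested. Among those that fell were the chemokine gene *Ccl4*, the receptor gene *Ccrl2*, the stress factor *Atf3*, the clock gene *Per1*, and the matrix gene *Thbs1*. Without adjustment, 779 genes were higher (4.69%) and 611 lower (3.68%) at *P* under 0.05. All 6 treated libraries lay above all vehicle libraries for 214 genes (1.29%) and below them for 252 (1.52%). The drugs differed from each other for 859 genes (5.17%), many more than differed between their mean and vehicle.

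With each drug tested alone against vehicle, prednisolone changed 293 genes (1.76% of all genes tested) and spironolactone 3 (0.0181%) at an adjusted *P* under 0.05. These counts depended on the tool, the filter, and single libraries. For prednisolone and spironolactone they were 738 and 293 with DESeq2, 1019 and 528 with no low-count filter, and 262 and 0 with limma-voom. Without 1 library they ran from 69 to 826 for prednisolone and from 0 to 34 for spironolactone. Of the 23 genes called with both drugs together, 22 passed with prednisolone alone, with *Thbs1* as the exception. With spironolactone alone 0 of the 23 passed (edgeR, adjusted *P* from 0.0542 for *Thbs1* to 0.979 for *Prg4*), and 20 had an unadjusted *P* under 0.05. The number that passed with spironolactone alone depended on the tool and filter, at 15 of 23 with DESeq2, 16 with no low-count filter, 0 with limma-voom, and 0 to 3 with 1 library left out.

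Of the 23 genes, 13 met a stricter description of a change in common. Both drugs lay on the same side of vehicle with an unadjusted *P* under 0.05 each, all 6 treated libraries lay outside the vehicle range, and the drug difference was not called. These were *Synpo* and *Ssc5d*, which rose, and *Tgif1*, *Sde2*, *Per1*, *Tagap*, *Ptp4a1*, *Ccrl2*, *Ifrd1*, *Irf2bp2*, *Chka*, *Thbs1*, and *Rab20*, which fell. A drug difference that is not called does not show that the drugs act alike. Without adjustment the 95% interval of the difference excluded 0 for *Per1*, *Thbs1*, *Irf2bp2* (0.10 to 0.48), *Tagap* (0.064 to 0.46), and *Ssc5d* (-0.89 to -0.21). It included 0 for the other 8, among them *Tgif1* (-0.07 to 0.35), *Ifrd1* (-0.18 to 0.58), *Chka* (-0.12 to 0.35), and *Rab20* (-0.075 to 0.45).

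The calls depend on how the spread is modeled. With the 6 treated libraries fitted as 1 group, so that the drug difference enters the error, 0 genes were called (959 at an unadjusted *P* under 0.05), and DESeq2 called 238, all 23 among them. DESeq2 also called *Ccl3*, *Vegfa*, *Dusp1*, *Flt3*, *Fos*, and *Atp2a1*, which the study names and edgeR did not call. In 11 alternatives at the same threshold these were called in 2 (*Dusp1*, *Flt3*, and *Atp2a1*) to 4 (*Ccl3*). In the 9 fits without 1 library they were called in 0 (*Atp2a1*) to 2 (*Ccl3* and *Vegfa*). Leaving out 1 library gave 1 gene (without vehicle 3 or prednisolone 2), 2 (without spironolactone 2), 3 (without spironolactone 3), 6 (without vehicle 2), 20 (without spironolactone 1 or prednisolone 3), 50 (without prednisolone 1), or 58 (without vehicle 1). With the level of *Xist* in the fit, 3 genes were called. All 23 genes kept their direction in each of these fits, which their choice as called genes largely fixes.

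**Figure D1:**
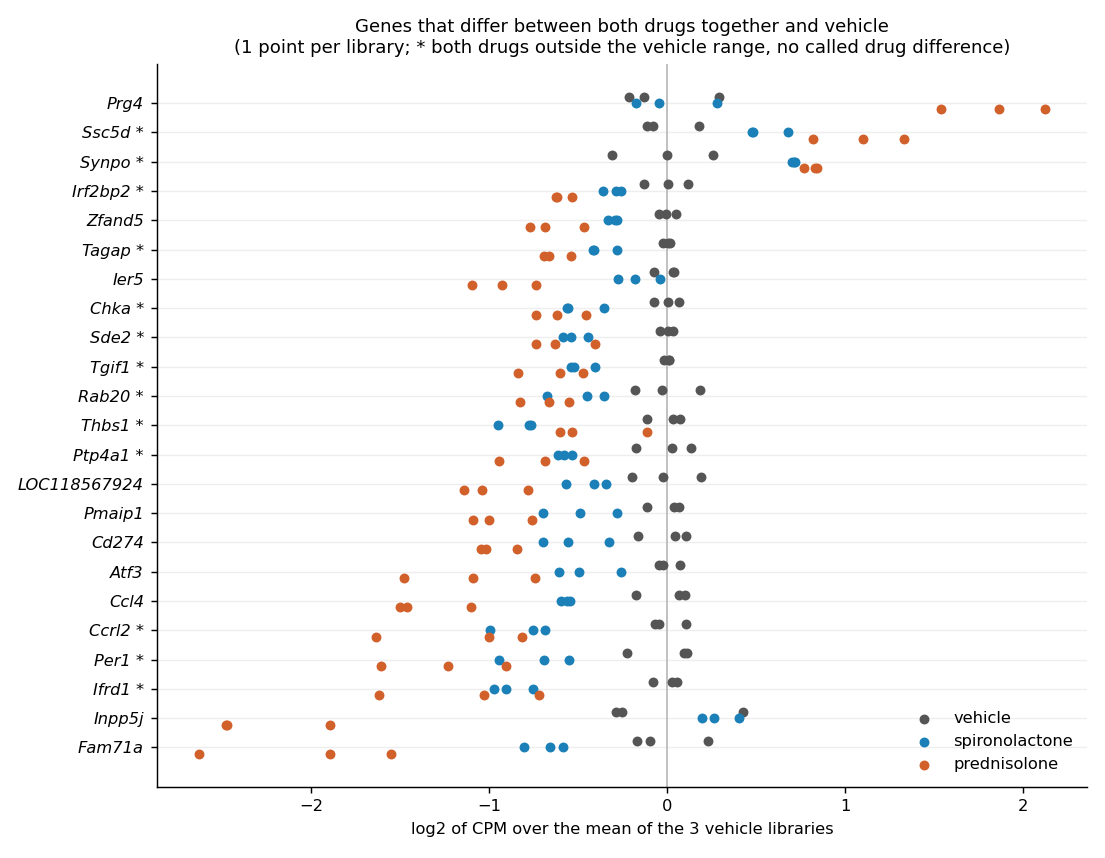
Levels of the 23 genes called with both drugs together, as log2 of the CPM of each library over the mean of the 3 vehicle libraries, with 1 point per library. For 20 of the 23 genes all 6 treated libraries lie outside the vehicle range, and for *Ier5*, *Prg4*, and *Inpp5j* the spironolactone libraries overlap it.

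A chemokine gene and a receptor gene were among the calls. *Ccl4* (chr11:83553383-83555509, + strand) encodes a chemokine that draws monocytes and lymphocytes. It was 138, 167, and 163 CPM in the vehicle libraries, 107, 105, and 103 CPM with spironolactone, and 72.6, 56.5, and 55.1 CPM with prednisolone. All treated libraries lay below vehicle, and all prednisolone libraries lay below all spironolactone libraries. The change with both drugs was -0.96 ± 0.094 (adjusted *P* = 0.0014), with -0.57 ± 0.11 for spironolactone and -1.34 ± 0.11 for prednisolone. The drugs differed by 0.77 (95% interval 0.53 to 1.02, adjusted *P* = 0.00254), so that the fitted value was further below 0 with prednisolone, which passed alone (adjusted *P* = 0.000218), than with spironolactone, which did not (adjusted *P* = 0.106). It was the only gene still called whichever of the 9 libraries was left out.

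*Ccrl2* (chr9:110883554-110886591, - strand) encodes a chemerin-binding receptor that activated macrophages put on their surface. Its level was 439, 432, and 488 CPM in vehicle, 227, 281, and 268 CPM in spironolactone, and 257, 226, and 146 CPM in prednisolone libraries, and vehicle and treated libraries did not overlap. It fell by 0.96 ± 0.14 (adjusted *P* = 0.0349), and the drug difference of 0.30 was not called (95% interval -0.069 to 0.67). The neighboring chemokine gene of *Ccl4* on the same chromosome, *Ccl3*, was 160.3, 249, and 224 CPM in vehicle, 140.1, 146, and 149.6 CPM in spironolactone, and 123, 112, and 87.5 CPM in prednisolone libraries. It also lay below vehicle in all treated libraries, but its change of -0.76 ± 0.13 just missed the threshold (adjusted *P* = 0.0547).

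Both *Ccrl2* and *Per1* were called, with no called drug difference, and for each 1 of its annotated promoters is printed because it holds a match to the site of a known factor. The RefSeq sequences run from 250 bases before to 50 bases after an annotated start, 5′ to 3′ on the strand of the gene, on GRCm38.p6. The capitals mark a kappaB site in *Ccrl2* (chr9:111057469-111057768, - strand) and an E-box (CACGTG, bound by CLOCK and related factors) in *Per1* (chr11:69098699-69098998, + strand).

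Ccrl2: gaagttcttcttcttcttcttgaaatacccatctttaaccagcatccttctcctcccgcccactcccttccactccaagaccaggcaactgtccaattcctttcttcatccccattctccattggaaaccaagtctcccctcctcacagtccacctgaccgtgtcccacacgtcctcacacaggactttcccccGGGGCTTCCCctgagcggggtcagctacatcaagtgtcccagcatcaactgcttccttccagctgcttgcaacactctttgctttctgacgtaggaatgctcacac

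Per1: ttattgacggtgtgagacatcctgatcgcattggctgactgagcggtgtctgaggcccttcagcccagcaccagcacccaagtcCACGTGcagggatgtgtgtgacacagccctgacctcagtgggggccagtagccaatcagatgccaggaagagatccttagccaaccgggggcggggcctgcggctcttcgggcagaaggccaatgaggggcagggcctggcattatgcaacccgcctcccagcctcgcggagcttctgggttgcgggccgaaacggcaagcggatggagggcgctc

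The kappaB match lies 56 bases before this start of *Ccrl2*, and the E-box 166 bases before this start of *Per1*. The 2 other promoters of *Ccrl2* in the table and the other promoter of *Per1* hold none of the motifs searched. Among all 32851 promoters of the table, 4.51% hold a kappaB site and 7.15% an E-box on either strand. Of the 20 genes that fell, 15 had a promoter in the table (22 promoters), of which 1 held a kappaB site and 3 an E-box. None of the 22 held the AP-1 site TGANTCA (7.81% of all promoters) or the glucocorticoid response element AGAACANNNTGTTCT (0.00913% of all). A match describes these letters only.

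Several genes that fell encode regulators of transcription. *Per1* (chr11:68986035-69002300, + strand), a repressor of the circadian clock and a classic target of the glucocorticoid receptor, was 261, 209, and 264 CPM in vehicle, 127, 151, and 167 CPM in spironolactone, and 130.5, 104, and 80.3 CPM in prednisolone libraries. All treated libraries lay below vehicle, and the change was -0.97 ± 0.14 (adjusted *P* = 0.0307). The change was -1.22 ± 0.17 with prednisolone and -0.72 ± 0.16 with spironolactone (drug difference 0.50, 95% interval 0.14 to 0.86, adjusted *P* = 0.0987). *Ifrd1* (chr12:40251561-40298503, - strand), a stress-induced cofactor of histone deacetylases, was 261, 238, and 256 CPM in vehicle, 134, 149, and 128 CPM in spironolactone, and 153, 124, and 81.9 CPM in prednisolone libraries. Its change was -0.98 ± 0.15 (adjusted *P* = 0.0378), again with no overlap.

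*Tgif1* (chr17:71151192-71160541, - strand), a repressor of TGF-beta and retinoid responses, had nearly equal vehicle libraries, at 188, 188, and 184 CPM. The spironolactone libraries were at 128, 141, and 129.8 CPM and the prednisolone libraries at 134, 123, and 104 CPM, a change of -0.56 ± 0.082 (adjusted *P* = 0.0307). *Irf2bp2* (chr8:127313038-127320753, - strand), a corepressor known for damping macrophage inflammation, fell by 0.45 ± 0.075 (adjusted *P* = 0.0394), with -0.59 ± 0.088 for prednisolone and -0.30 ± 0.088 for spironolactone. *Atf3* (chr1:190902493-190950241, - strand), a stress-induced AP-1 family factor that restrains Toll-like receptor targets, was 712, 666, and 656 CPM in vehicle, 567, 445, and 481 CPM in spironolactone, and 404, 318, and 244 CPM in prednisolone libraries. Its mean change was -0.76 ± 0.13 (adjusted *P* = 0.0473), with a fitted value further below 0 for prednisolone than for spironolactone (drug difference 0.63, adjusted *P* = 0.0352).

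Other called genes act in splicing, signaling, lipid synthesis, and membrane traffic. *Sde2* (chr1:180678612-180695678, + strand), needed for splicing and replication, was 42.03, 40.8, and 42.8 CPM in vehicle, 28.8, 30.8, and 27.9 CPM in spironolactone, and 31.6, 27.02, and 25.1 CPM in prednisolone libraries (-0.55 ± 0.084, adjusted *P* = 0.0307). *Ptp4a1*, a phosphatase linked to cell growth, changed by -0.63 ± 0.099 (adjusted *P* = 0.0323). For *Sde2* and *Ptp4a1* the drugs gave values close to each other, with drug differences of 0.064 (95% interval -0.15 to 0.28) and 0.11 (-0.14 to 0.36). *Tagap* (chr17:8144790-8153729, + strand), a GTPase-activating protein of leukocytes, changed by -0.50 ± 0.079 (adjusted *P* = 0.0323). *Chka* (chr19:3901743-3944381, + strand), the choline kinase that starts phosphatidylcholine synthesis, changed by -0.54 ± 0.093 (adjusted *P* = 0.0423). *Rab20* (chr8:11503392-11528710, - strand), a GTPase of phagosome maturation, changed by -0.58 ± 0.10 (adjusted *P* = 0.0476). These 5 genes lay below vehicle in all 6 treated libraries, at levels from 16.1 CPM (*Chka*) to 44.8 CPM (*Ptp4a1*).

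*Thbs1* (chr2:117941974-117957616, + strand) encodes thrombospondin-1, a matrix glycoprotein that limits blood vessel growth and activates latent TGF-beta. It was the most abundant gene of the 23, at 2212, 1997, and 2272 CPM in vehicle, 1264, 1269, and 1118 CPM in spironolactone, and 1994, 1490, and 1422 CPM in prednisolone libraries. Prednisolone library 1 lay just under the lowest vehicle library, and the other 5 treated libraries were well below. The change was -0.61 ± 0.11 (adjusted *P* = 0.0473). *Thbs1* was the only one of the 20 genes that fell with a larger fitted change for spironolactone (-0.83 ± 0.13) than for prednisolone (-0.40 ± 0.13), and this drug difference was not called (-0.43, 95% interval -0.70 to -0.15, adjusted *P* = 0.0677).

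Of the 3 genes that rose, *Synpo* and *Ssc5d* lay above vehicle in all treated libraries, both at low levels. *Synpo*, an actin-binding protein, was 6.54, 9.67, and 8.10 CPM in vehicle, 13.2, 13.3, and 13.3 CPM in spironolactone, and 14.4, 13.8, and 14.5 CPM in prednisolone libraries. It rose by 0.76 ± 0.13 (adjusted *P* = 0.0394), with nearly the same value for each drug (0.71 ± 0.14 and 0.81 ± 0.14; drug difference -0.10, 95% interval -0.41 to 0.20). *Ssc5d* (chr7:4928784-4947825, + strand), a soluble scavenger receptor that binds bacteria and matrix proteins, was 5.93, 7.08, and 5.80 CPM in vehicle, 10.03, 8.72, and 8.74 CPM in spironolactone, and 11.1, 13.4, and 15.7 CPM in prednisolone libraries (0.82 ± 0.14, adjusted *P* = 0.0473). The third, *Prg4* (chr1:150325163-150342009, - strand), encodes the joint lubricant lubricin. Its level was 9.94, 13.3, and 9.38 CPM in vehicle, 10.5, 9.61, and 13.2 CPM in spironolactone, and 47.3, 39.6, and 31.6 CPM in prednisolone libraries, so that its mean change of 0.95 ± 0.16 holds 1.86 ± 0.18 with prednisolone and 0.031 ± 0.18 with spironolactone. Marker lists of muscle, stromal, and endothelial cells also stood higher with both drugs together, and their part in these values was not tested.

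The drug difference was called for 10 of the 23 genes. Of the 20 genes that fell, 19 had the larger fitted change with prednisolone. *Inpp5j* (chr11:3444137-3455500, - strand), a phosphatase of inositol lipids, was 19.6, 11.9, and 12.2 CPM in vehicle, 16.7, 19.3, and 17.5 CPM in spironolactone, and 2.61, 2.63, and 3.92 CPM in prednisolone libraries. Its mean change of -0.98 ± 0.17 holds -2.25 ± 0.22 with prednisolone and 0.29 ± 0.20 with spironolactone. *Fam71a* was 32.8, 26.1, and 24.9 CPM in vehicle, 18.6, 17.7, and 15.99 CPM in spironolactone, and 9.54, 7.52, and 4.51 CPM in prednisolone libraries, with a mean change of -1.32 ± 0.17 (adjusted *P* = 0.0295) and a drug difference of 1.28. It passed with prednisolone alone (adjusted *P* = 0.00163) and not with spironolactone alone (adjusted *P* = 0.281). In 4 other called genes the fitted value was below 0 with each drug and further below with prednisolone. None passed with spironolactone alone (adjusted *P* = 0.128, 0.166, 0.225, and 0.254 in the order given). Like *Irf2bp2* above, they are named after their values were seen. *Cd274* (chr19:29344529-29365495, + strand), which encodes the immune checkpoint ligand PD-L1, was 74.4, 61.6, and 71.2 CPM in vehicle, 55.1, 46.98, and 42.6 CPM in spironolactone, and 38.5, 34.1, and 33.5 CPM in prednisolone libraries (-0.74 ± 0.093, adjusted *P* = 0.0134). *Pmaip1*, the pro-apoptotic protein NOXA, changed by -0.71 ± 0.10 (adjusted *P* = 0.0295), *LOC118567924* by -0.71 ± 0.11 (adjusted *P* = 0.0307), and *Zfand5*, an activator of the proteasome, by -0.47 ± 0.077 (adjusted *P* = 0.0392). The prednisolone and spironolactone comparisons share the vehicle libraries, so that like values for the drugs are not independent of each other.

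**Figure D2:**
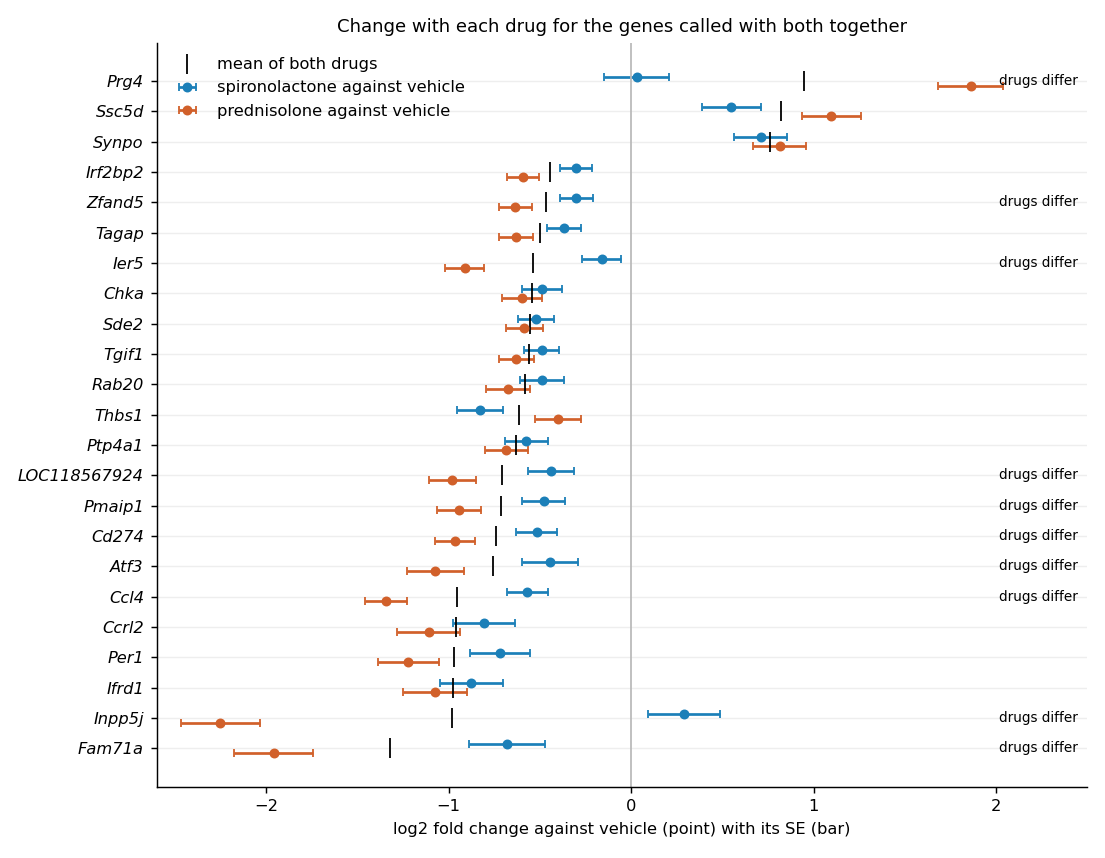
Log2 fold change against vehicle with each drug (points, with SE bars) and their mean (black mark) for the 23 called genes. The values of 13 genes carry no called drug difference, and the 10 marked on the right differ between the drugs, *Inpp5j* and *Prg4* by the most.

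Whether reads were counted by strand is not given in the sources used here. *Cd274* overlaps *Plgrkt*, *Inpp5j* overlaps *Pla2g3*, *Prg4* overlaps *Tpr*, *Ssc5d* overlaps *Sbk2*, *Dusp1* overlaps *Ergic1*, *Junb* overlaps *Prdx2*, *Fosl1* overlaps *Ccdc85b*, *Nfkb2* overlaps *Psd*, *Myd88* overlaps *Acaa1a*, *Nr1d1* overlaps *Thra*, and *Atp2a1* overlaps *Rabep2* on the opposite strand (GENCODE, GRCm39), and reads of such pairs cannot be told apart without strand. These pairs are examples, and many of the other named genes overlap a predicted or noncoding gene. The positions of *Fam71a*, *Ptp4a1*, and *LOC118567924* are not given.

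Early response genes were described as lists, and members named beyond the most abundant 2 of a list (by CPM) were chosen after their values were seen. The part of muscle digestion and cell sorting in the levels of these genes was not tested. Over all genes tested the median change was -0.0096, 3.68% were lower and 4.69% higher at an unadjusted *P* under 0.05, and 1.52% lay below and 1.29% above vehicle in all treated libraries. The counts of each list are to be read against these shares. With prednisolone and spironolactone the medians were -0.50 and -0.30 for the AP-1 family, -0.17 and -0.28 for the EGR, NR4A, and IER list, -0.31 and -0.47 for the MAP kinase phosphatases, and -0.29 and -0.39 for NF-kappaB feedback. The drug difference was called for 3 of 12, 1 of 15, 1 of 8, and 0 of 18 members (edgeR, 5.17% of all genes). In the AP-1 family, the FOS, JUN, ATF, and MAF factors that form the AP-1 dimer, the median was -0.45, with 8 of 12 members lower at an unadjusted *P* under 0.05, 0 higher, and 5 below vehicle in all treated libraries. *Fos* (chr12:85520658-85524047, + strand) was 1628, 1402, and 1513 CPM in vehicle, 1248, 929, and 1034 CPM in spironolactone, and 1181, 1003, and 788 CPM in prednisolone libraries. The groups did not overlap, but the change of -0.56 ± 0.12 was not called (adjusted *P* = 0.109). *Junb*, the most abundant member, was 2471, 2586, and 2809 CPM in vehicle, 1913, 2244, and 2317 CPM in spironolactone, and 1888, 1692, and 1343 CPM in prednisolone libraries (-0.48 ± 0.11, unadjusted *P* = 0.000585). *Fosl1* (0.053) and *Batf3* (0.01) were the members with a fitted value above 0.

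In the MAP kinase phosphatases, which switch off ERK, JNK, and p38, the median was -0.45, with 4 of 8 members lower at an unadjusted *P* under 0.05 and 3 below vehicle throughout. *Dusp1* (chr17:26724564-26781102, - strand), a brake on p38 that glucocorticoids are known to induce, was 1336, 1334, and 1741 CPM in vehicle, 997, 927, and 1133 CPM in spironolactone, and 1056, 940.1, and 723 CPM in prednisolone libraries. It lay below vehicle in all treated libraries (-0.61 ± 0.12, adjusted *P* = 0.0809). *Dusp2* (-0.64) and *Dusp10* (-0.61) did so too, whereas *Dusp6*, a target of ERK itself, was at -0.069 (unadjusted *P* = 0.413).

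Among 18 genes of NF-kappaB feedback and mRNA decay, the median was -0.35, with 11 lower at an unadjusted *P* under 0.05, 0 higher, and 6 below vehicle throughout. *Zfp36* (chr7:28076209-28079710, - strand) encodes tristetraprolin, which degrades cytokine mRNAs. It was 3281, 3053, and 2984 CPM in vehicle, 2183, 2440, and 2331 CPM in spironolactone, and 2472, 1900, and 1517 CPM in prednisolone libraries (-0.54 ± 0.12, unadjusted *P* = 0.000591). The RNase gene *Zc3h12a* (-0.55 ± 0.12) and the inhibitor genes *Nfkbiz* (-0.57 ± 0.15) and *Nfkbid* (-0.42 ± 0.13) also lay below vehicle throughout. *Nfkbia*, which encodes IkappaB-alpha, was lower but overlapped vehicle (-0.45 ± 0.17, unadjusted *P* = 0.0245). The subunits *Nfkb1* (-0.018), *Nfkb2* (0.012), and *Relb* (-0.018) were near 0. In the list of EGR, NR4A, and IER genes 6 of 15 were lower at an unadjusted *P* under 0.05 (median -0.27), and 3 without vehicle library 3. The call among them was *Ier5* (chr1:154972107-154975382, - strand), which fell with prednisolone (-0.91 ± 0.11) and overlapped vehicle with spironolactone (-0.16 ± 0.10). *Klf6* (-0.49 ± 0.094) and *Ier3* (-0.69 ± 0.19) were below vehicle throughout, the nuclear receptor gene *Nr4a1*, the most abundant, was at -0.34 with overlap, and *Egr1* was at -0.12 (unadjusted *P* = 0.555).

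**Figure D3:**
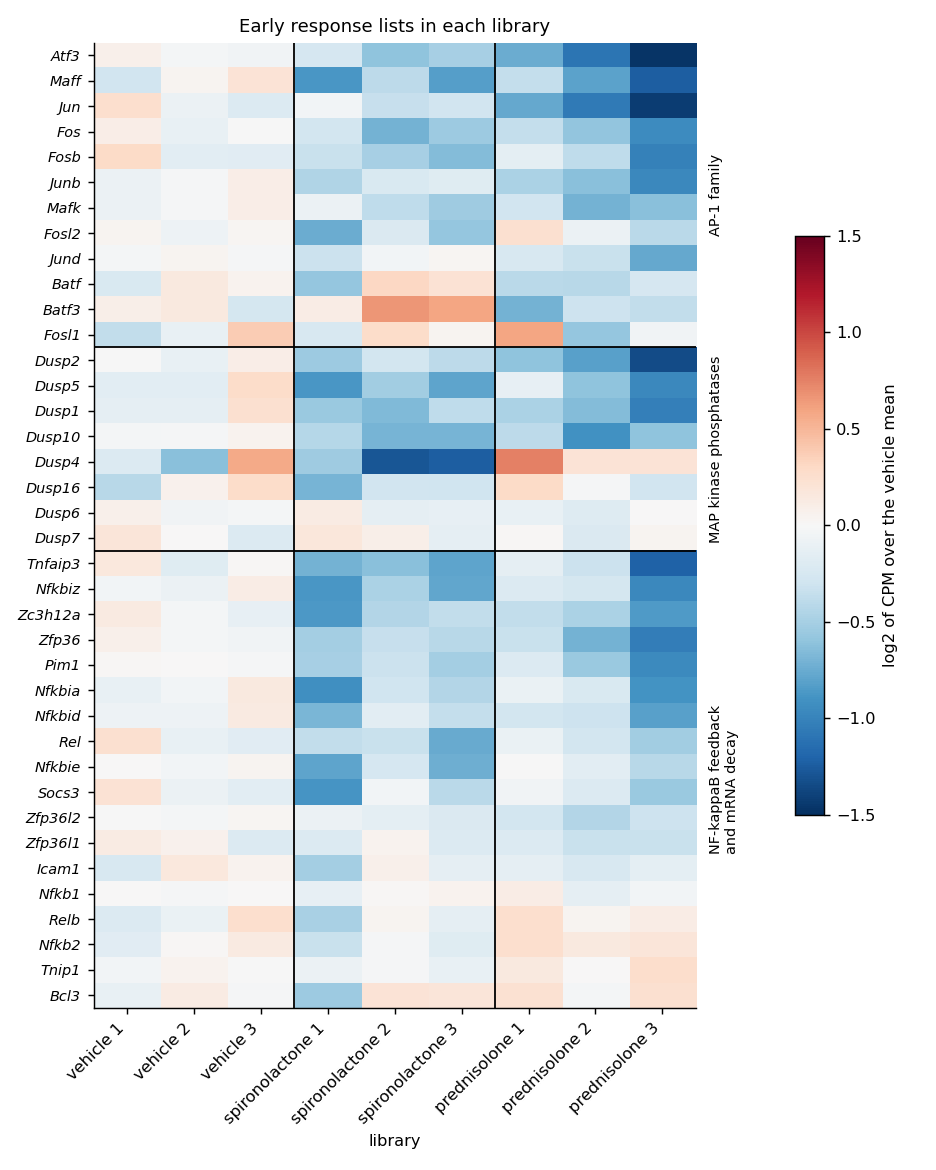
Log2 of the CPM of each library over the vehicle mean for the tested members of 3 early response lists (rows) in the 9 libraries (columns), blue for lower and red for higher. The upper rows of each list are blue in most treated libraries. Prednisolone library 3 is the lowest treated library for 7 of 12 AP-1, 3 of 8 phosphatase, and 5 of 18 NF-kappaB genes, and spironolactone library 1 for 2, 1, and 8.

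The promoters of *Dusp1* (chr17:26508423-26508722, - strand) and *Zfp36* (chr7:28379179-28379478, - strand), the most abundant members of their lists, are printed because each holds a match to the site of a known factor (RefSeq, GRCm38.p6). Here too a match describes letters only. The capitals mark in *Dusp1* a cyclic AMP response element (CRE, TGACGTCA) followed by an E-box, and in *Zfp36* a CArG box, the site of serum response factor.

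Dusp1: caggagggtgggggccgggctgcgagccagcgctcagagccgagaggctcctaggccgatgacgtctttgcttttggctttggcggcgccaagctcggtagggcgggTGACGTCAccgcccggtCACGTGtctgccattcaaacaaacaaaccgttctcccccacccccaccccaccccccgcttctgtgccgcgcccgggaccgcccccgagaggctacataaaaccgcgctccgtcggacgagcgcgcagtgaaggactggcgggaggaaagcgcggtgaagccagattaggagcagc

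Zfp36: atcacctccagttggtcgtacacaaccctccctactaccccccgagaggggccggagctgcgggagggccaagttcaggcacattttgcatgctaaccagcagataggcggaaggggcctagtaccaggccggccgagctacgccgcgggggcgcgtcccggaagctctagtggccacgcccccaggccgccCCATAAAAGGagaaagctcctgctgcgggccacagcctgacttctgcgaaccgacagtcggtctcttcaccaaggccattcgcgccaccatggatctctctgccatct

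The CRE of *Dusp1* lies 143 bases and its E-box 126 bases before the start, and the CArG box of *Zfp36* 58 bases before. Over all promoters, 1.79% hold the CRE and 1.63% a CArG box on either strand. Of 25 promoters of the 18 inflammatory list members below vehicle throughout and found in the table, 3 held a CRE, 1 a CArG box, 6 a kappaB site, 7 an E-box, and 0 an AP-1 site or glucocorticoid response element.

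Prednisolone library 3 was the lowest treated library for 15 of the 20 genes that fell, and in the NF-kappaB feedback list spironolactone library 1 was the lowest for 8 of 18 genes against 5 for prednisolone library 3. Summed over each list, all treated libraries lay below vehicle for the AP-1 family (6239, 6069, and 6222 CPM with spironolactone and 5831, 4999, and 3875 CPM with prednisolone against 8147, 7499, and 7737 CPM). It was also so for the MAP kinase phosphatases (1306, 1230, and 1414 and 1382, 1216, and 1006 CPM against 1686, 1666, and 2101 CPM) and for NF-kappaB feedback (5609, 6696, and 6094 and 6995, 5938, and 4827 CPM against 8282, 7875, and 8004 CPM). The sum of the EGR, NR4A, and IER list did not separate, at 2882, 3568, and 3080 CPM with spironolactone and 3824, 3249, and 2602 CPM with prednisolone against 3732, 4168, and 4275 CPM, with prednisolone library 1 inside the vehicle range.

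**Figure D4:**
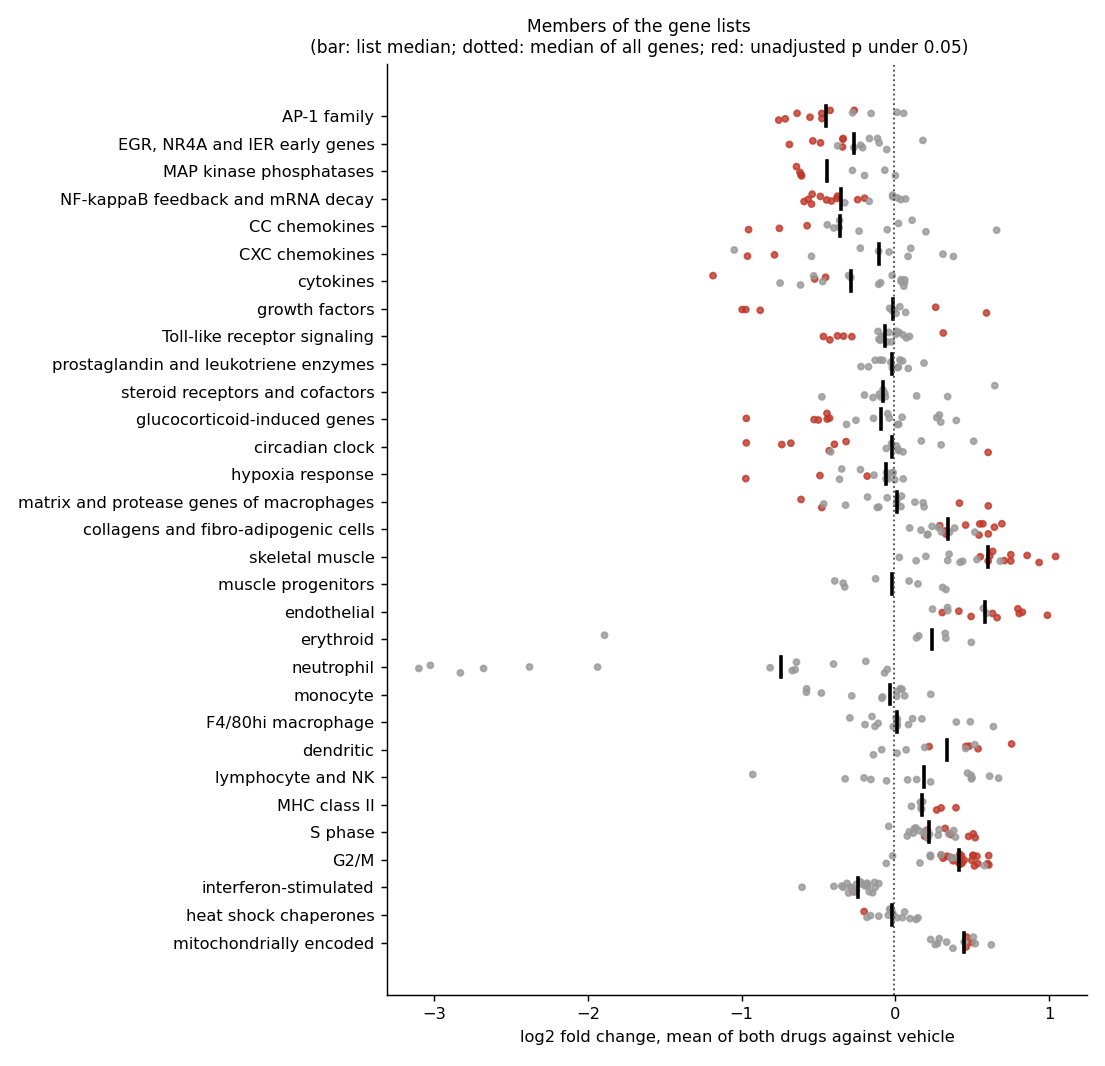
Log2 fold change of both drugs together against vehicle for the tested members of 31 gene lists, with 1 point per gene (red at an unadjusted *P* under 0.05), a black bar at the list median, and a dotted line at the median of all genes. Medians of the AP-1, MAP kinase phosphatase, CC chemokine, and NF-kappaB lists lie below -0.35, those of skeletal muscle and endothelial genes above 0.58, and neutrophil members spread from -3.10 to -0.053.

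Secreted signals were split. Of 13 CC chemokines 3 were lower at an unadjusted *P* under 0.05 (*Ccl3*, *Ccl4*, and *Ccl8*, the last at -1.35 ± 0.16 with prednisolone and 0.20 ± 0.15 with spironolactone), beside 3.68% of all genes. The most abundant, *Ccl6* (-0.054) and *Ccl9* (0.02), were near 0. The neutrophil attractant *Cxcl1* was 180.2, 136, and 146 CPM in vehicle, 66.95, 75.9, and 78.5 CPM in spironolactone, and 111, 105, and 38.8 CPM in prednisolone libraries, below vehicle throughout (-0.96 ± 0.30, unadjusted *P* = 0.0156), and *Cxcl2* was lower with overlap (-0.79 ± 0.23, unadjusted *P* = 0.00796). Platelet factor 4 (*Pf4*) was at -0.041. Of 17 cytokines 3 were lower, namely *Il10*, *Tnf*, and *Osm*. *Il10*, which restrains macrophage activation, was 29.6, 22.5, and 21.3 CPM in vehicle, 11.6, 14.9, and 11.7 CPM in spironolactone, and 14.2, 8.99, and 3.95 CPM in prednisolone libraries, below vehicle throughout (-1.19 ± 0.32, unadjusted *P* = 0.00529). *Tnf* was at -0.53 ± 0.16 and the most abundant, *Il1b* and *Tgfb1*, at -0.021 ± 0.32 and 0.061 ± 0.097. Pro-inflammatory and anti-inflammatory cytokine genes thus both stand among the lower ones, none with an adjusted call. The lower counts depend on single libraries. The CC chemokine count was 7 without vehicle library 1 and 5 without prednisolone library 1, and the cytokine count 6 without vehicle library 1 and 5 without spironolactone library 2.

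Among 11 growth factors, *Vegfa* (chr17:46327919-46343309, - strand), the main endothelial growth factor, was 91.4, 74.7, and 78.3 CPM in vehicle, 40.5, 44.99, and 43.2 CPM in spironolactone, and 52.3, 42.5, and 25.7 CPM in prednisolone libraries. All treated libraries lay below vehicle, with values for the drugs close to each other (-0.93 ± 0.21 and -1.02 ± 0.21), with a drug difference of 0.095 and a 95% interval of -0.36 to 0.55. The mean change was not called with edgeR (-0.97 ± 0.17, adjusted *P* = 0.0809) and was called with DESeq2 (adjusted *P* = 1.2e-05). The stress cytokine *Gdf15* lay below vehicle too (-0.998 ± 0.22, unadjusted *P* = 0.00157), and *Pdgfb* (0.59 ± 0.11) and *Pdgfa* (0.26 ± 0.097) were higher at an unadjusted *P* under 0.05. Of the most abundant, *Grn* was near 0 (-0.021). The mean of *Igf1* was also near 0 (0.004), but it was made of -0.23 ± 0.10 with prednisolone and 0.24 ± 0.10 with spironolactone. This drug difference was called (0.47, adjusted *P* = 0.0182). In Toll-like receptor signaling 5 of 22 were lower and 1 higher, with the kinases *Map3k8* (-0.47 ± 0.1) and *Irak2* (-0.34 ± 0.078) below vehicle throughout. The most abundant, *Cd14* and *Tlr13*, were at -0.43 ± 0.16 and -0.091 ± 0.086. The receptor *Tlr4* was at 0.05 and its adaptor *Myd88* at -0.043. None of 13 prostaglandin and leukotriene enzymes, *Ptgs2* (-0.22 ± 0.26) and *Alox5ap* (-0.021) among them, reached an unadjusted *P* under 0.05.

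The receptors of the drugs did not pass the test. *Nr3c1*, the glucocorticoid receptor, was 93.8, 93.1, and 95.7 CPM in vehicle, 94.04, 88.04, and 78.2 CPM in spironolactone, and 96.98, 85.9, and 95.8 CPM in prednisolone libraries (-0.07 ± 0.078, unadjusted *P* = 0.387). *Nr3c2*, the mineralocorticoid receptor, was scarce, at 0.182, 0.187, and 0.841 CPM in vehicle, 0.949, 0.885, and 0.0633 CPM in spironolactone, and 0.213, 0.122, and 0.327 CPM in prednisolone libraries, where 3 counts correspond to 0.0890 to 0.0949 CPM. None of the 11 genes of steroid receptors and cofactors reached an unadjusted *P* under 0.05, *Ncoa3* among them (-0.20). Of 18 genes known to be induced by glucocorticoids, 6 were lower at an unadjusted *P* under 0.05 and 0 higher (median -0.097). These were *Per1*, *Klf9* (-0.44 ± 0.11), *Tsc22d3* (-0.50 ± 0.13), *Fkbp5* (-0.43 ± 0.12), *Sgk1* (-0.45 ± 0.13), and *Ddit4* (-0.53 ± 0.23), which were lower in fitted value with each drug, prednisolone included. *Tsc22d3*, which encodes the glucocorticoid-induced leucine zipper, was 157, 146, and 167 CPM in vehicle, 94.6, 113, and 156 CPM in spironolactone, and 87.9, 110.2, and 104 CPM in prednisolone libraries, with overlap. The most abundant of the list, *Anxa1* (0.043) and *Glul* (0.011), were near 0. Of 17 clock genes 6 were lower and 1 higher. Besides *Per1*, *Nfil3* lay below vehicle throughout (-0.68 ± 0.14), *Bhlhe40* (-0.32 ± 0.092) and *Nr1d1* (-0.74 ± 0.22) were lower with overlap, and *Per2* (0.0067) and *Arntl* (0.022) were near 0.

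For *Fn1* and *Hif1a* the mean of both drugs was near 0, with the drugs on opposite sides of vehicle. *Fn1* (chr1:71624673-71692419, - strand), fibronectin, was 3890, 3904, and 3167 CPM in vehicle, 2080, 3203, and 2191 CPM in spironolactone, and 6068, 5005, and 5189 CPM in prednisolone libraries. Its mean change was 0.0084 ± 0.14, made of -0.55 ± 0.16 with spironolactone and 0.57 ± 0.16 with prednisolone (drug difference -1.12, adjusted *P* = 0.00254). *Hif1a* (chr12:73948149-73996321, + strand), the hypoxia factor, was 157, 210.5, and 202 CPM in vehicle, 143, 152, and 134 CPM in spironolactone, and 263, 234, and 255 CPM in prednisolone libraries. Its mean change was -0.0047 ± 0.095, made of -0.41 ± 0.11 and 0.40 ± 0.11 (drug difference -0.81, adjusted *P* = 0.00189). The macrophage elastase *Mmp12* was higher throughout (559.7 to 580.4 CPM in vehicle and 636 to 1374 CPM in treated libraries, 0.60 ± 0.12, adjusted *P* = 0.0751). *Spp1* (0.014) and *Gpnmb* (0.18), the most abundant of the list, did not reach an unadjusted *P* under 0.05 for both drugs together. The mean of *Spp1* was made of 0.36 ± 0.16 with prednisolone and -0.33 ± 0.16 with spironolactone (drug difference -0.69, adjusted *P* = 0.0274).

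Genes of other cell types were among those higher with both drugs. All 19 skeletal muscle genes had a fitted value above 0 (median 0.60), 10 at an unadjusted *P* under 0.05, and 3 lay above vehicle throughout, but 0 were called. Over all genes tested, 4.69% were higher at that threshold and 1.29% lay above vehicle throughout. *Atp2a1* (chr7:126045013-126063423, - strand), the calcium pump SERCA1 of fast muscle fibers, was 21.99, 29.4, and 28.3 CPM in vehicle, 50.9, 36.6, and 57.8 CPM in spironolactone, and 47.2, 63.9, and 32.4 CPM in prednisolone libraries. Its change was 0.86 ± 0.22 (adjusted *P* = 0.255), beside 0.71 ± 0.20 for skeletal actin *Acta1*, 0.60 ± 0.19 for the myosin light chain *Myl1*, and 1.04 ± 0.19 for fast myosin *Myh1*. Summed, the list was 403, 603, and 601 CPM in vehicle, 868, 715, and 1180 CPM in spironolactone, and 633, 862, and 600.0 CPM in prednisolone libraries, with 1 prednisolone library inside the vehicle range. For the collagens and fibro-adipogenic list all 20 members had a fitted value above 0 (median 0.34, 10 at an unadjusted *P* under 0.05), with medians of 0.49 with spironolactone and 0.21 with prednisolone. Its most abundant members, *Gsn* and *Col3a1*, were at 0.092 and 0.32. Its sum was 1473, 1979, and 1897 CPM in vehicle, 2649, 1872, and 2542 CPM in spironolactone, and 1913, 1976, and 1987 CPM in prednisolone libraries, so that 3 of the 6 treated libraries lay inside the vehicle range. The endothelial list (median 0.58, 9 of 14) had a median of 1.08 with spironolactone and 0.086 with prednisolone. Vehicle library 1, which stood apart on the second principal component, was the lowest library for the sums of the muscle, collagen, and endothelial lists. The endothelial sums were 128, 198, and 177 CPM in vehicle, 361, 261, and 288 CPM in spironolactone, and 216, 176, and 170.3 CPM in prednisolone libraries, with *Vwf* at 0.30 and *Cdh5* at 0.63. The value of *Cdh5* was made of 0.068 ± 0.22 with prednisolone and 1.20 ± 0.22 with spironolactone (edgeR, difference adjusted *P* = 0.0178). Without vehicle library 1 the members higher at an unadjusted *P* under 0.05 numbered 5 of 19 for muscle, 4 of 20 for the collagen list, and 6 of 14 for the endothelial list. Which cells the RNA of these lists came from, and its part in the change of any gene, was not tested.

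**Figure D5:**
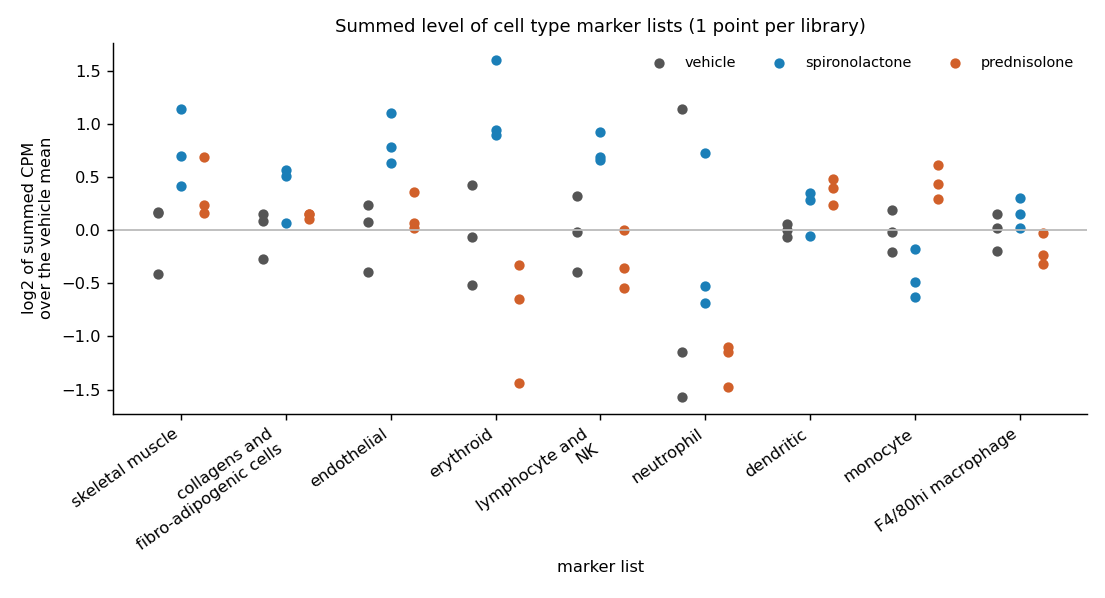
Summed level of marker lists in each library, as log2 of the summed CPM over the vehicle mean, with 1 point per library. For skeletal muscle and dendritic genes 5 of the 6 treated libraries lie above all vehicle libraries, erythroid and lymphocyte genes lie above vehicle with spironolactone only, and neutrophil genes are high in vehicle library 3 and spironolactone library 3. *Itgax* holds a large part of the dendritic sum and *Fn1* of the monocyte sum.

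Among myeloid subsets, dendritic cell genes stood higher (median 0.34, 5 of 12 at an unadjusted *P* under 0.05, beside 4.69% of all genes). The list had a median of 0.42 with spironolactone and 0.11 with prednisolone, and the drug difference was called for 4 of 12 (5.17% of all genes). Its sum did not follow the order of these medians, at 754, 724, and 691 CPM in vehicle, 696, 881, and 919 CPM in spironolactone, and 854, 1010, and 951 CPM in prednisolone libraries, with spironolactone library 1 inside the vehicle range and the drugs overlapping each other. The most abundant members overlapped vehicle and differed between the drugs. *Itgax* (CD11c) was at 0.80 ± 0.15 with prednisolone and 0.12 ± 0.15 with spironolactone (difference adjusted *P* = 0.0238), and the transcription factor gene *Irf8* at -0.32 ± 0.089 and 0.14 ± 0.089 (difference adjusted *P* = 0.0129). *Itgax* held a large part of each sum, at 334, 325, and 322.5 CPM in vehicle, 269, 401, and 398 CPM in spironolactone, and 471, 653.5, and 581.5 CPM in prednisolone libraries. Less its values, all spironolactone sums lie above all vehicle sums, and no prednisolone sum does. *Flt3* (chr5:147267551-147337483, - strand), the growth factor receptor of dendritic cells and their precursors, was 18.2, 13.6, and 15.8 CPM in vehicle, 21.1, 23.1, and 25.8 CPM in spironolactone, and 24.5, 21.7, and 22.1 CPM in prednisolone libraries. All treated libraries lay above vehicle, with nearly equal values for the drugs (0.55 ± 0.13 and 0.52 ± 0.13, drug difference 0.031, 95% interval -0.24 to 0.30). The mean change was not called with edgeR (0.54 ± 0.11, adjusted *P* = 0.0819) and was called with DESeq2 (adjusted *P* = 0.00316). *Cd209a*, a lectin of monocyte-derived dendritic cells, lay above vehicle too (0.76 ± 0.19, unadjusted *P* = 0.00303), and these were the only 2 of the 12 that did. In bulk libraries, more cells of a type and more RNA per cell cannot be told apart. Monocyte (median -0.038) and F4/80hi macrophage genes (median 0.011) had a mean change of both drugs near that of all genes, with 0 members at an unadjusted *P* under 0.05, but the drugs differed. The drug difference was called for 3 of 12 monocyte and 7 of 17 F4/80hi macrophage genes (5.17% of all genes). Summed, the monocyte list was 5653, 7439, and 6440 CPM in vehicle, 4218, 5755, and 4632 CPM in spironolactone, and 9965, 7991, and 8825 CPM in prednisolone libraries. All prednisolone libraries lay above vehicle, and 2 of the 3 spironolactone libraries lay below. *Fn1*, described above, is the most abundant member of this list and held a large part of each sum. It was 3890, 3904, and 3167 CPM in vehicle, 2080, 3203, and 2191 CPM in spironolactone, and 6068, 5005, and 5189 CPM in prednisolone libraries. Less the values of *Fn1*, the sums of the prednisolone and vehicle libraries overlap, and those of the spironolactone libraries lie inside the vehicle range. The F4/80hi macrophage list was 10920, 9949, and 8588 CPM in vehicle, 9966, 12090, and 10950 CPM in spironolactone, and 7875, 8357, and 9623 CPM in prednisolone libraries, with all spironolactone above all prednisolone libraries. Of the most abundant members of the 2 lists, *Fn1* was at 0.57 with prednisolone and -0.55 with spironolactone. For both drugs together *Chil3* was at 0.23 ± 0.33, *Selenop* at -0.11, and *C1qb* at 0.012. The drug difference was called for *Fn1*, *Selenop* (0.62, adjusted *P* = 0.0422), and *C1qb* (0.62, adjusted *P* = 0.0154). It was not called for *Chil3* (-1.40, adjusted *P* = 0.0833). Neutrophil genes had a median of -0.74 with 0 of 14 at that threshold, *Csf3r* at -0.19 ± 0.15 and *S100a9* at -0.67 ± 0.86 among them. Their sum was 828, 1112, and 5432 CPM in vehicle, 1530, 1705, and 4060 CPM in spironolactone, and 1143, 1108, and 883 CPM in prednisolone libraries, and vehicle library 3 stood far above the other vehicle libraries.

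G2/M genes, which mark dividing cells, were higher in 23 of 33 members at an unadjusted *P* under 0.05, beside 4.69% of all genes (median 0.41), with a median of 0.68 for prednisolone and 0.12 for spironolactone. Without vehicle library 2 the count was 14. The drug difference was called for 13 of the 33 (5.17% of all genes). Summed, the list was 913, 596, and 757 CPM in vehicle, 829, 754, and 862 CPM in spironolactone, and 1109, 1268, and 1237 CPM in prednisolone libraries. All spironolactone libraries lay inside the vehicle range and all prednisolone libraries above it. The most abundant, *Mki67* and *Top2a*, were at 0.38 ± 0.17 and 0.41 ± 0.12 with overlap. The drug difference was called for *Top2a* (-0.58, edgeR adjusted *P* = 0.0253) and not for *Mki67* (-0.71, adjusted *P* = 0.0632). *Ccnb2* was the member above vehicle in all treated libraries (0.53 ± 0.11). Interferon-stimulated genes had a median of -0.24, made of -0.52 with prednisolone and 0.025 with spironolactone, with 1 of 24 lower at an unadjusted *P* under 0.05, a share near the 3.68% of all genes. The most abundant, *Irf7* and *Oasl2*, were at -0.31 ± 0.27 and -0.22 ± 0.18. Mitochondrially encoded transcripts had a median of 0.45 with 3 of 13 higher, and heat shock chaperones a median of -0.02, with *COX1* at 0.27, *CYTB* at 0.50, *Hspa8* at 0.046, and *Hsp90ab1* at 0.095. For mitochondrially encoded transcripts the medians were 0.13 with prednisolone and 0.77 with spironolactone, and vehicle library 1 had the lowest sum of the 9 libraries (35660, 55110, and 51490 CPM in vehicle).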

How the data were processed

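RNA of sorted CD45+CD11b+ cells from pooled quadriceps of *mdx* mice was sequenced in 9 libraries. The authors aligned reads to mm39 with HISAT2 2.2.1 and counted them per gene with HTSeq 0.11.3, and the deposited counts are whole numbers without normalization. The strand setting is not given in the sources used here. Lines that name no gene (17.2% to 21.8% of the counts) were left out. Tables of the authors' own comparisons, made with DESeq2 1.32.0, hold fold changes and p-values and were not used.

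Groups were taken from the treatment labels. Genes were kept with filterByExpr (minimum count 10, minimum total 15) and tested with edgeR 4.0.16 in R 4.3.3 (TMM, glmQLFit with robust=TRUE, 3 group means, quasi-likelihood F test, two-sided). The contrast was the mean of both drug groups minus vehicle, and p-values were adjusted by Benjamini-Hochberg across the 16618 genes, with 0.05 as threshold. The drug difference was the contrast spironolactone minus prednisolone in the same fit. P-values measure the spread between pools, and a biological coefficient of variation of 0.17 was fitted. Counts on genes were near equal among libraries, and the counting CV (Poisson) was 0.176 at 1 CPM, 0.0557 at 10 CPM, and 0.0176 at 100 CPM. No library pair of a group agreed within sampling noise (chi-square per degree of freedom 18.0 to 57.8).

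Named genes were up to 12 per direction with a change in common and a change (log2) of 0.5 or more, up to 4 per direction with a called drug difference, 11 genes that the study names, and the called and the 2 most abundant members of each list (a gene that this rule names is not reported here). The members and lists were chosen with earlier results of these data known. Alternatives were DESeq2 1.42.0, limma-voom (limma 3.58.1), other normalizations and filters, robust=FALSE, 1 treated group, a replicate block, *Xist* as a covariate, a stricter threshold, and fits without each library. The script was tested on simulated data. Positions are from GENCODE on GRCm39, and promoters from RefSeq on GRCm38.p6. The kappaB and CArG sites were searched as consensus sites on both strands.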

Additional observations from a re-analysis of the deposited data

Results flagged for a closer look

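The change against vehicle differed between the drugs for 12 of the 31 genes examined, by the test of the difference itself (edgeR, adjusted *P* under 0.05). Spironolactone minus prednisolone, on the log2 scale, was 0.77 for *Ccl4*, 0.45 for *Cd274*, 0.46 for *Pmaip1*, 1.28 for *Fam71a*, 0.54 for *LOC118567924*, 0.33 for *Zfand5*, 0.75 for *Ier5*, 0.63 for *Atf3*, and 2.54 for *Inpp5j*. It was negative for *Prg4* (-1.83), *Fn1* (-1.12), and *Hif1a* (-0.81), which stood higher with prednisolone. Among these, for *Inpp5j*, *Fn1*, and *Hif1a* the fitted changes of the drugs had opposite signs, so that their mean describes neither drug. The 31 genes are the called genes and those the study names, and other list members named in the text also had a called drug difference.

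The summed level of the neutrophil list over the 6 treated libraries had 1 library far from the others, spironolactone replicate 3 at 4060 CPM (Dixon ratio 0.741, above the 95% critical value for 6 samples). It was the single such case in 63 groups of 6 (31 genes and 32 lists), and chance gives about 1 in 20. Vehicle replicate 3 was also high for this list, at 5432 CPM.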

How the results depend on the processing

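All 23 called genes kept their direction in every alternative and in every fit without 1 library. The counts of calls did not hold. Genes higher and lower numbered 3 and 20 as reported, 116 and 122 with DESeq2, 270 and 262 with no low-count filter, 0 and 12 with robust=FALSE, 0 and 0 with the treated libraries as 1 group of 6 (959 at an unadjusted *P* under 0.05), 0 and 3 with the *Xist* covariate, and 0 and 1 at an adjusted *P* under 0.01. With limma-voom 1 gene was higher. Genes with a change in common, higher and lower, numbered 2 and 11 as reported, 46 and 59 with DESeq2, 52 and 59 with no low-count filter, 1 and 7 with upper quartile normalization, 0 and 7 with robust=FALSE, 0 and 1 with the *Xist* covariate, and 0 and 0 at an adjusted *P* under 0.01. The higher count was 1 with limma-voom, library totals only, or at least 10 counts in every library. Genes that differed between the drugs numbered 859, with 1739 by DESeq2, 1940 with no low-count filter, and 183 at an adjusted *P* under 0.01. The causes were not tested, except that the fit with 1 treated group puts the drug difference into the error by construction.

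Without 1 library the ranges were 0 to 24 genes higher, 1 to 44 lower, 0 to 9 in common higher, 0 to 34 in common lower, and 232 to 1898 that differed between the drugs. The near-zero means of *Fn1* and *Hif1a* changed sign. The Fn1 log2 fold change was -0.00126 with limma-voom and ranged from -0.10 to 0.066 without 1 library. The Hif1a log2 fold change was 0.0050 with limma-voom, 0.013 with upper quartile normalization, 0.0051 with library totals only, 0.0045 with no low-count filter, 0.051 with 1 treated group, 0.0012 with the replicate block, and -0.12 to 0.076 without 1 library.

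The replicate numbers do not pair the libraries by the labels, and correlations of same-numbered deviations ran from -0.038 to 0.151. The replicate block gave 8 genes higher and 33 lower (18 of the 23 among them), and 17 lower in common. RLE normalization, which called all 23, gave 24 genes. The 23 genes were chosen as called and 20 have all treated libraries outside the vehicle range, so that their kept direction is no sign of stability. With 3 pools per group, leaving out 1 pool decides most calls. Depth limits genes of a few CPM, where the counting CV (0.176 at 1 CPM, 0.0557 at 10 CPM) is not small beside the biological coefficient of variation of 0.17.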

Other observations

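Some lists were not described with the comparison. Of 24 S phase genes 8 were higher at an unadjusted *P* under 0.05, beside 4.69% of all genes tested, and 23 had a fitted value above 0. Their median was 0.22, with 0.43 for prednisolone and 0.032 for spironolactone, and the drug difference was called for 6 of the 24 (5.17% of all genes). The most abundant, *Pcna* and *Mcm6*, were at 0.12 and 0.20. Of 8 genes of MHC class II, which presents antigen to helper T cells, 3 were higher and all 8 had a fitted value above 0 (median 0.17), with a median of 0.54 for spironolactone and -0.13 for prednisolone and a called drug difference for 5 of 8. The most abundant, *Cd74* and *H2-Ab1*, were at 0.17 and 0.17. The value of *H2-Ab1* was made of -0.26 ± 0.15 with prednisolone and 0.59 ± 0.15 with spironolactone (edgeR, difference adjusted *P* = 0.00732). For *Cd74* the drug difference was not called (adjusted *P* = 0.0851). Of 15 hypoxia genes 3 were lower (3.68% of all genes), *Vegfa*, the glycolytic regulator *Pfkfb3* (-0.49), and the heme oxygenase *Hmox1* (-0.18), with *Ldha* at -0.049, while 14 of 15 had a fitted value below 0 (median -0.061). Muscle progenitor genes, scarce at 17.3 to 43.1 CPM in sum, had 0 of 8 members at that threshold, *Myog* at -0.13 and *Myod1* at -0.34 among them. Erythroid genes (6, *Hba-a1* at 0.15 and *Hbb-bs* at 0.33) and lymphocyte and NK genes (14, *Klrd1* at 0.079 and *Cd79b* at -0.058) had medians of 1.27 and 1.26 with spironolactone and -0.77 and -0.56 with prednisolone. The value of *Hba-a1* was made of -0.83 with prednisolone and 1.14 with spironolactone (edgeR, difference adjusted *P* = 0.0213). That of *Cd79b* was made of -0.46 and 0.35 (difference adjusted *P* = 0.0307). The drug difference was not called for *Hbb-bs* and *Klrd1*. In the lists of this section 0 members were called for both drugs together.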
